A study of Mus musculus with 146 samples.

Results

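The genes described here are 10 genes of macroautophagy, taken by symbol from the 52605 gene symbols quantified in every library. They are Ulk1, Becn1, Atg5, Atg12, Atg7, Map1lc3a, Map1lc3b, Gabarap, Gabarapl2 and Sqstm1, and all 10 symbols were present. The 146 libraries hold 1 germ cell each, picked by mouth pipette from the jointly digested ovaries of newborn C57/BL6J pups, recorded as D0.5. No treatment or allele separates the cells, and all of them share strain, age and tissue. RNA was amplified by Smart-seq2, a full-length method for single cells, and ERCC spike-in RNA was included. The 1 library with less than 1 TPM of Ddx4, the germ cell helicase also called VASA, was left out of all values below. TPM are a level per length of transcript that sums to 1000000 in each library, so the levels of different genes can be compared. No label ties a cell to a pup or a litter, so all cells form 1 sample. Levels, shares and ratios are therefore given without a test, and the spread stated is that between cells.

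Autophagy delivers cytoplasm to the lysosome inside a double membrane, the autophagosome. The ULK1 kinase complex starts the process, and the Beclin 1 complex with the lipid kinase VPS34 marks the membrane with phosphatidylinositol 3-phosphate. ATG7 activates the ubiquitin-like proteins ATG12 and ATG8, ATG12 is joined to ATG5, and this conjugate helps to attach the ATG8 proteins (LC3 and GABARAP) to a lipid of the growing membrane. SQSTM1, also called p62, binds ubiquitinated cargo and ATG8 and is itself degraded with the cargo. In the newborn mouse ovary, loss of Atg7 or Becn1 is known to reduce the number of germ cells, and germ cells at this age leave their cysts and enter primordial follicles.

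The cells were placed in 3 clusters rebuilt from 20 genes of meiosis and oocyte growth, none of which is an autophagy gene. Cluster 1 held 19 libraries, cluster 2 held 95 and cluster 3 held 31. They are numbered along the first principal component, from high Sycp2, a gene of the meiotic chromosome axis (mean 494.9, 165 and 62.3 TPM in clusters 1, 2 and 3), to high Zp3, a gene of the egg coat (0.0943, 18.6 and 580.1 TPM). Both genes helped to make the clusters, so these values only describe them. A difference from clusters published for these cells may come from the rebuilding.

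The libraries had 4074810 to 26855273 reads assigned to genes, with a median of 9498860. Each of 7 germ cell markers had a mean above 1 TPM in every cluster. Of 8 pregranulosa markers, 0, 1 and 1 reached a mean of 1 TPM in clusters 1, 2 and 3, and the defining gene Foxl2 had means of 0.0644, 0.407 and 0 TPM. The summed pregranulosa level lay between 0 and 12.8 TPM in cluster 1, 81.6 TPM in cluster 2 and 13.7 TPM in cluster 3. Of 8 stroma markers, 4, 5 and 2 reached a mean of 1 TPM, with summed levels of at most 294, 879 and 38.3 TPM and medians of 4.35, 0.698 and 0.479 TPM. These levels were thus lower in cluster 3, as were several genes below, and their part in the results was not tested. Haemoglobin genes summed to more than 1000 TPM in 5, 18 and 6 libraries of clusters 1, 2 and 3. The spike-ins took a median of 10423, 12182 and 6375 TPM, so they were a smaller share of the RNA in cluster 3.

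Of the libraries, 7 pairs were nearly the same. Across the 11747 coding genes with a mean of at least 1 TPM, the log2 values of a pair correlated with Pearson's r of 0.989 to 0.996, while the next most alike libraries, S077 and S138, had an r of 0.808 and the median over all other pairs was 0.593. These are correlations across genes, which are not independent replicates. Reads differed within a pair by 1.66 to 4.58 times the variance of counting alone, against 252 times for S077 and S138. The pairs, by their number in the labels, are S045 and S140, S046 and S141, S058 and S142, S062 and S143, S063 and S144, S123 and S145, and S124 and S146. All 14 lie in cluster 2, and the labels do not say whether a cell was sequenced more than once. The values below keep every library, and values with each pair averaged and counted as 1 cell are given for levels, detection and each ratio whose call they change.

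The members can be described in the same way, though the pairs were found by likeness over genes that include them, so small differences within pairs follow from the choice. Over the 10 genes and 7 pairs, paired libraries differed by a median of 0.083 on the log2(TPM + 1) scale, while unpaired libraries of cluster 2 differed by a median of 1.34. A gene was detected in both or in neither library of a pair in all but 1 of 70 cases, which was Sqstm1 in S062 and S143. Per gene, the median difference within pairs was at most 0.16 (Map1lc3a), and the median difference between unpaired libraries was at least 0.81 (Gabarapl2).

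The ATG8 genes are the members most alike in sequence, and whether reads can tell them apart bears on every value given for them. Their last 60 coding bases, up to and including the stop codon, are shown 5′ to 3′ from GRCm38 (GENCODE M21), with the codon of the glycine to which the membrane lipid is attached in capitals. The protease ATG4 removes what follows this glycine.
Map1lc3a, chr2:155277578-155277637, plus strand: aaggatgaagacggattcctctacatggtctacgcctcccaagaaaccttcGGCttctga
Map1lc3b, chr8:121596711-121596770, plus strand: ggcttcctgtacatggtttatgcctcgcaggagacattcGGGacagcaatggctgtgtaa
Gabarap, chr11:69994465-69994524, plus strand: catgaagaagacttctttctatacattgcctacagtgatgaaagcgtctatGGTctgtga
Gabarapl2, chr8:111952346-111952405, plus strand: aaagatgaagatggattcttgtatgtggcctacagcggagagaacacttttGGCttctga
In these transcripts 1 codon lies between the glycine and the stop in Map1lc3a, Gabarap and Gabarapl2, and 5 codons in Map1lc3b. The coding sequences of Map1lc3a and Map1lc3b are identical at 74.1% of aligned bases, with no shared run longer than 15 bases, and those of Gabarap and Gabarapl2 at 61.9%, with no run longer than 11. Another gene of the family, Gabarapl1, is closest to Gabarap, with 74.9% identity and a longest shared run of 17 bases.

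No coding window of 31 bases, a common word length of Salmon indexes, was shared between these ATG8 genes. Over whole transcripts, Map1lc3a and Gabarap shared no such window with any other gene. In Gabarapl2 15.3% and in Map1lc3b 8.64% of the windows occurred in other genes, and for both the 3 genes that shared most are not among the symbols of the deposited tables. Becn1 shared 39.6% of its windows with Cntd1 and Sqstm1 16.3% with Mrnip, which had means of 23.3 and 128.5 TPM. The protocol marks no strand, so the reads of these shared stretches cannot be told apart here, and how they were divided adds an uncertainty to Becn1 and Sqstm1 that these files cannot size. In Ulk1, Atg5, Atg12 and Atg7, at most 1.10% of the windows were shared.

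All 10 genes were expressed, at levels from a mean of 279 TPM for Gabarapl2 to 7.01 TPM for Atg7. The ATG8 genes Gabarapl2 (279 ± 149 TPM, SD over libraries) and Map1lc3a (265 ± 173 TPM) were highest, with means above those of 96.03% and 95.8% of the 11747 coding genes. Becn1, the scaffold of the VPS34 complex, followed with 193 ± 153 TPM and Atg12, the ubiquitin-like partner of Atg5, with 119.9 ± 110.4 TPM. Gabarap had 92.4 ± 71.6 TPM, Atg5 70.5 ± 76.6 TPM, Map1lc3b 61.5 ± 46.01 TPM and the cargo receptor Sqstm1 61.1 ± 63.6 TPM. The kinase gene Ulk1 had 29.8 ± 43.5 TPM, and Atg7, which encodes the activating enzyme, had 7.01 ± 12.8 TPM, a mean above that of 29.9% of coding genes. With the 7 pairs averaged, the means lay between 280.1 TPM for Gabarapl2 and 6.93 TPM for Atg7.

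Neighbours in this order did not differ beyond the spread of the cells. The interquartile ranges of adjacent genes overlapped in all 9 steps, and the gene with the higher mean was the higher one in 52.4% (Atg5 over Map1lc3b) to 75.2% (Ulk1 over Atg7) of libraries. Some genes further apart did not overlap in this range, and others did. The lower quartile of Gabarapl2 (179.6 TPM) lay above the upper quartile of Atg12 (162 TPM), that of Map1lc3a (137.8 TPM) above that of Gabarap (122.7 TPM), and that of Becn1 (95.4 TPM) above that of Atg5 (92.1 TPM). Atg12 was higher than its partner Atg5 in 98 libraries.

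**Figure D1:**
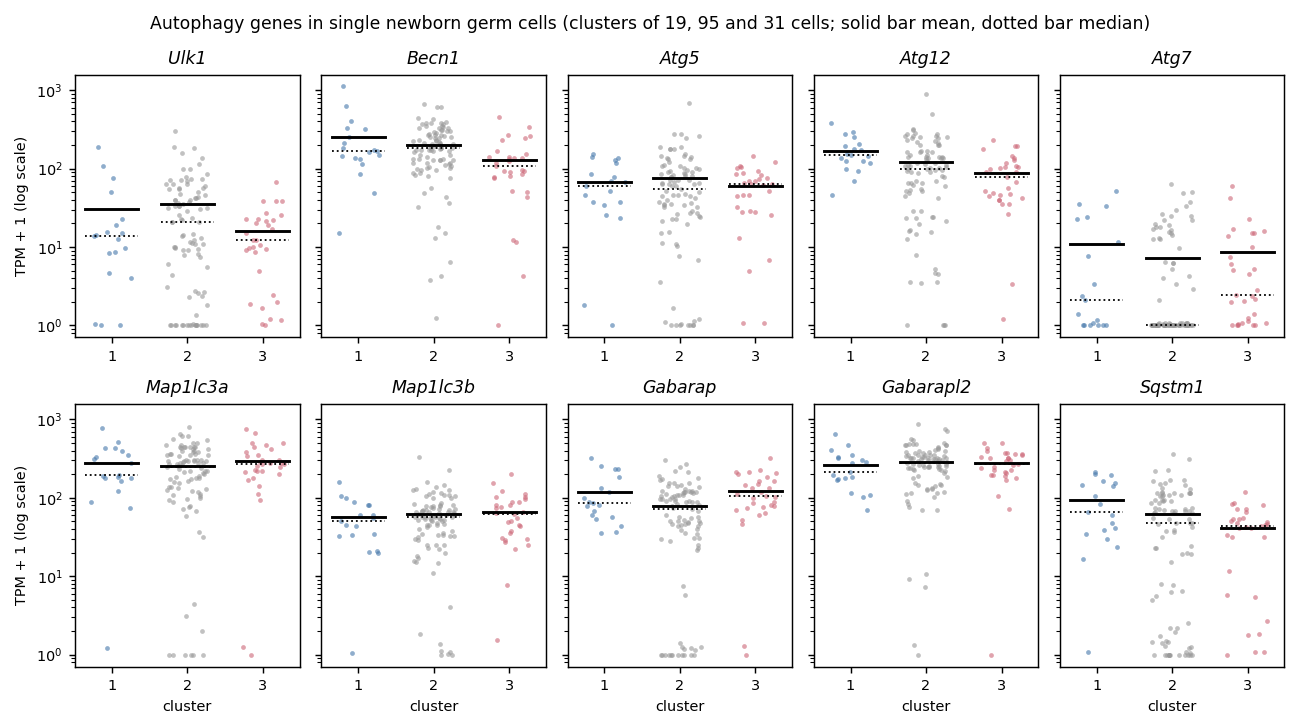
TPM + 1 of each gene on a log axis, 1 point per library, in clusters 1 (19 libraries), 2 (95) and 3 (31). Solid bars are means and dotted bars medians. Gabarapl2 and Becn1 are at 0 in 2 and 1 libraries, while Atg7 is at 0 in 59, and the clusters overlap for every gene.

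The genes also differed in how often they were found. With a level of at least 0.1 TPM counted as detected, Becn1 was detected in all libraries but 1 (99.3%, exact Clopper-Pearson 95% confidence interval 96.2 to 99.98%, for counting error only), Gabarapl2 in 98.6%, Atg12 in 97.2%, Map1lc3b in 96.6% and Map1lc3a in 95.2%. Gabarap and Atg5 were each detected in 91.7%, Sqstm1 in 87.6% (81.1 to 92.5%) and Ulk1 in 84.8% (77.9 to 90.2%). Atg7 was detected in 68 libraries (46.9%, 38.6 to 55.4%). With the 7 pairs averaged, the share was 99.3% for Becn1, 84.8% for Ulk1 and 47.1% for Atg7. After each library was thinned to 1000000 reads and 1 read was asked for, Becn1 was found in 98.6%, Ulk1 in 84.1% and Atg7 in 44.8% of libraries.

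Most libraries held a member either at a clear level or near 0. Sqstm1 was at or above 10 TPM in 71.7% of libraries, at 0 in 13 libraries and between 0 and 1 TPM in 16. Ulk1 was at or above 10 TPM in 84 libraries and Atg7 in 37, and Atg7 was at 0 in 59. Levels from 1 to below 10 TPM were found in 12 libraries for Sqstm1, 32 for Ulk1 and 25 for Atg7. Gabarapl2 and Becn1 were each at or above 10 TPM in 95.9%. The coefficient of variation over libraries was lowest for Gabarapl2 (0.534) and Map1lc3a (0.653) and highest for Ulk1 (1.46) and Atg7 (1.82), the genes with the lowest means.

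A median of 9 of the 10 genes was detected per library, and all 10 in 51 libraries (35.2%). All genes other than Atg7 were detected in 94 libraries. In 4 libraries, 5 or fewer genes were detected. One of these is S010 of cluster 3, with 7762212 reads and 7.49 TPM of Ddx4, in which Atg12 (2.37 TPM) and Map1lc3b (203 TPM) were the 2 genes found. The others are S027, S031 and S066 of cluster 2, with 5 genes each. In S012 of cluster 3, 8 genes were at or below 0.798 TPM, while Becn1 was at 451 TPM and Gabarapl2 at 190.1 TPM.

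The comparisons between clusters ask whether the genes differ in level between germ cells placed early and late in this order. A ratio is the log2 ratio of mean TPM, the later cluster over the earlier, with 1 TPM added to both means, and it is called higher or lower from 1.5-fold upwards (0.585 as log2). With 1 sample this is a size and not a test. From cluster 1 to cluster 3, 4 of the 10 genes were lower and 0 higher, where 36.6% of the tested genes were lower and 26.7% higher. Between clusters 2 and 3, 3 genes were lower and 1 higher, where 31.6% of tested genes were lower and 16.3% higher. Between clusters 1 and 2, 1 gene was lower and 0 higher, where 21.1% of tested genes were lower and 25.2% higher. With the 7 pairs averaged, Sqstm1 and Atg7 passed the size from 1 to 2 and Sqstm1 no longer passed it from 2 to 3, so that 3 genes passed it in each of these comparisons. The median log2 ratio of the 10 genes was -0.27 from cluster 1 to 3, -0.20 from 2 to 3 and -0.21 from 1 to 2, and that of all tested genes was -0.19, -0.24 and 0.01. The share of members called lower was thus near the background from cluster 1 to 3 and from 2 to 3. From 1 to 2 it rests on 1 call near the limit, and it was 3 of 10 with the pairs averaged (21.8% of tested genes lower) and 4 of 10 with means of log2 values (27.3%), so nothing is read from it.

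Of the genes that start autophagosome formation, Becn1 (chr11:101285952-101302286, minus strand, GRCm38) had a lower mean in cluster 3. It ranged from 14.02 TPM over a median of 167 to 1116 TPM in cluster 1 (mean 251 ± 253), from 0.244 over 180.3 to 677 TPM in cluster 2 (202 ± 134.4) and from 0 over 105.9 to 451 TPM in cluster 3 (128.6 ± 100.6). The median lay lower in cluster 3, and the ranges overlapped. The log2 ratio was -0.31 from cluster 1 to 2, -0.65 from 2 to 3 and -0.96 from 1 to 3. The ratio from 2 to 3 was -0.31 by CPM and 0.24 by TPM divided by the spike-in TPM of the cell. Without S016, which held 1116 TPM, the ratio from 1 to 3 was -0.65. By CPM, reads scaled to the total of the library without regard to length, it was -0.53, and by the spike-in scale it was -0.07.

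Ulk1 (chr5:110784488-110810097, minus strand) had its lowest mean in cluster 3, with a ratio to cluster 1 that rested on 1 library. It ranged from 0 over 12.7 to 187 TPM in cluster 1 (29.2 ± 47.2), from 0 over 20.1 to 303 TPM in cluster 2 (34.8 ± 47.99) and from 0 over 11.2 to 66.5 TPM in cluster 3 (15.02 ± 14.9). Libraries at 0 occurred in each cluster, and the highest libraries of clusters 1 and 2 had no counterpart in cluster 3. The log2 ratio was -1.16 from cluster 2 to 3 and -0.91 from 1 to 3. The former was -0.14 per spike-in TPM, -0.09 between equal parts of the order and -0.55 as a difference of mean log2 values, so it did not pass the size in any of these. The latter was -0.42 without S059, which held 187 TPM, -0.30 by CPM and -0.16 as a ratio of medians. Ulk1 was detected in 29 libraries of cluster 3 (93.5%), 78 of cluster 2 (82.1%) and 16 of cluster 1 (84.2%), so detection was not lower where the mean was.

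In the conjugation system, Atg12 (chr18:46730144-46741580, minus strand) had a lower mean TPM in cluster 3. It ranged from 45.1 over 146.9 to 386 TPM in cluster 1 (168 ± 83.9), from 0 over 98.6 to 893 TPM in cluster 2 (121.3 ± 124.1) and from 0.205 over 77.4 to 229 TPM in cluster 3 (85.9 ± 58.02). Its lower quartile in cluster 1 (120.1 TPM) lay above its upper quartile in cluster 3 (113.4 TPM), and the full ranges overlapped. The log2 ratio from cluster 1 to 3 was -0.96, between -1.04 and -0.85 with any 1 library left out, -0.74 by CPM and -0.07 per spike-in TPM. From 1 to 2 it was -0.47. From 2 to 3 it was -0.49, inside 1.5-fold, -0.32 by CPM and -0.06 as a difference of mean log2 values. Per spike-in TPM the ratio from 2 to 3 was 0.61, past 1.5-fold in the other direction.

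Its partner Atg5 (chr10:44268358-44364291, plus strand) did not pass the size in any comparison of these 3 clusters by mean TPM. It ranged from 0 over 59.4 to 152 TPM in cluster 1 (67.2 ± 47.2), from 0 over 54.7 to 679 TPM in cluster 2 (75.2 ± 89.7) and from 0.0629 over 61.8 to 145.6 TPM in cluster 3 (58.2 ± 37.3). Its medians were close to each other, and its log2 ratios were 0.16, -0.36 and -0.21 for clusters 2 over 1, 3 over 2 and 3 over 1. The ratio of 3 over 2 passed the size in opposite directions per spike-in TPM (0.59) and between equal parts of the order (-0.70). The highest values of both genes were in S017, with 679 TPM of Atg5 and 893 TPM of Atg12.

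Atg7 (chr6:114643097-114860614, plus strand) differed between clusters in detection more than in mean. It was detected in 12 libraries of cluster 1 (63.2%, exact 95% interval 38.4 to 83.7%), in 33 of cluster 2 (34.7%, 25.3 to 45.2%) and in 23 of cluster 3 (74.2%, 55.4 to 88.1%). At or above 10 TPM it was found in 31.6%, 24.2% and 25.8% of the libraries, so the clusters were closer at a clear level. Its mean was 9.80 ± 15.3, 6.26 ± 12.1 and 7.60 ± 13.1 TPM, with medians of 1.14, 0 and 1.42 TPM and highest values of 51.4, 62.8 and 59.2 TPM. The log2 ratio was -0.57 from cluster 1 to 2, 0.24 from 2 to 3 and -0.33 from 1 to 3, and the last became 0.02 without S016 and 0.65 in the variable-gene clusters, while the second became -0.08 without S021. With the 7 pairs averaged, the first was -0.61 and passed the size. It was -0.22 without S016, -0.14 per spike-in TPM and 0.33 in the variable-gene clusters. Over 14 settings it lay between -1.10 and 0.33, with 1 above 0. With libraries thinned to 1000000 reads, Atg7 was found in 47.4%, 36.8% and 67.7% of them. Coding genes with a read numbered a median of 9258, 9111 and 10631 in clusters 1, 2 and 3, and their part in the detection of Atg7 was not tested.

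Of the 4 ATG8 genes, Gabarap (chr11:69991143-69994951, plus strand) was the one that passed the size, and it did so in opposite directions along the order. It ranged from 35.03 over 85.6 to 321 TPM in cluster 1 (118.5 ± 84.5), from 0 over 69.98 to 300.3 TPM in cluster 2 (77.9 ± 65.3) and from 0 over 104.6 to 321 TPM in cluster 3 (120.8 ± 70.9). The mean of cluster 2 was lower than those of the others, and cluster 2 held 11 of the 12 libraries in which Gabarap was not detected. Cluster 2 holds 65.5% of all libraries, and the 11 include S062 and S143, a pair of nearly equal libraries. The log2 ratio was -0.60 from cluster 1 to 2, 0.63 from 2 to 3 and 0.03 from 1 to 3. The first is close to the limit, and any one of 22 libraries, when left out, took it below 1.5-fold, with the value nearest to 0 (-0.46) without S106. The second was 0.55 without S006. As ratios of medians they were -0.29 and 0.57, and under some other clusters or quality limits they also lay inside 1.5-fold. Over 14 settings of scaling, averaging and clustering, the sign did not change for 2 over 1 (-1.42 to -0.29) or 3 over 2 (0.51 to 1.78).

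The other ATG8 genes had similar levels in the 3 clusters. Gabarapl2 (chr8:111940703-111953612, plus strand) ranged from 69.3 over 215 to 656 TPM in cluster 1 (258 ± 146.1), from 0 over 276 to 864 TPM in cluster 2 (284 ± 159) and from 0 over 270.01 to 505 TPM in cluster 3 (275 ± 115.3). Map1lc3a (chr2:155276297-155278073, plus strand) ranged from 0.216 over 193 to 787 TPM in cluster 1 (274 ± 186), from 0 over 248 to 792 TPM in cluster 2 (254 ± 172) and from 0 over 269 to 759.7 TPM in cluster 3 (293 ± 170.3). Map1lc3b (chr8:121590361-121598760, plus strand) ranged from 0.0617 over 49.3 to 159.8 TPM in cluster 1 (56.5 ± 38.1), from 0 over 55.4 to 329 TPM in cluster 2 (61.1 ± 48.4) and from 0.550 over 61.2 to 203 TPM in cluster 3 (65.8 ± 43.7). Their log2 ratios from cluster 1 to 3 were 0.10, 0.10 and 0.22, well within the spread of the cells. Per spike-in TPM these became 0.99, 0.88 and 1.04.

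Sqstm1 (chr11:50199366-50210827, minus strand) had the lowest log2 ratio of mean TPM of the 10 genes from cluster 1 to 3, a rank that some settings did not keep. It ranged from 0.0860 over 64.97 to 213 TPM in cluster 1 (91.8 ± 69.4), from 0 over 46.9 to 361 TPM in cluster 2 (61.8 ± 68.2) and from 0 over 42.5 to 116.3 TPM in cluster 3 (40.1 ± 30.1). The upper end of the cells was lower in cluster 3, and the ranges overlapped. The log2 ratio was -0.56 from cluster 1 to 2, -0.61 from 2 to 3 and -1.18 from 1 to 3. The last lay between -1.27 and -1.07 with any 1 library left out, and was -0.88 by CPM, -0.83 without the libraries with more than 1000 TPM of haemoglobin and -0.25 per spike-in TPM. Without those haemoglobin-rich libraries, Becn1 (-1.19), Ulk1 (-1.10) and Atg12 (-0.96) were lower than Sqstm1. As ratios of medians, Atg12 (-0.92) and Becn1 (-0.66) were lower than Sqstm1 (-0.60). Any one of 13 libraries, when left out, took the ratio from 2 to 3 below 1.5-fold, and it was -0.28 by CPM, 0.51 per spike-in TPM and 0.06 as a difference of mean log2 values. With the 7 pairs averaged, it was -0.58, inside 1.5-fold, and the ratio from 1 to 2 was -0.59, past it.

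Within a cell, Sqstm1 can be read against the ATG8 genes it binds, a ratio that the scaling of the cell does not touch. Relative to the summed ATG8 TPM of the same cell, Sqstm1 had medians of 11.4%, 6.45% and 4.63% in clusters 1, 2 and 3. By the same measure Becn1 had 23.7%, 27.9% and 13.2%. The spread of these ratios between cells is not given. As a share of the summed TPM of the 10 genes, Sqstm1 had interquartile ranges of 3.44 to 9.57%, 0.165 to 7.57% and 0.743 to 5.73%. Becn1 had 10.97 to 23.9%, 11.9 to 20.6% and 6.05 to 13.4%, so the clusters overlapped for both genes.

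**Figure D2:**
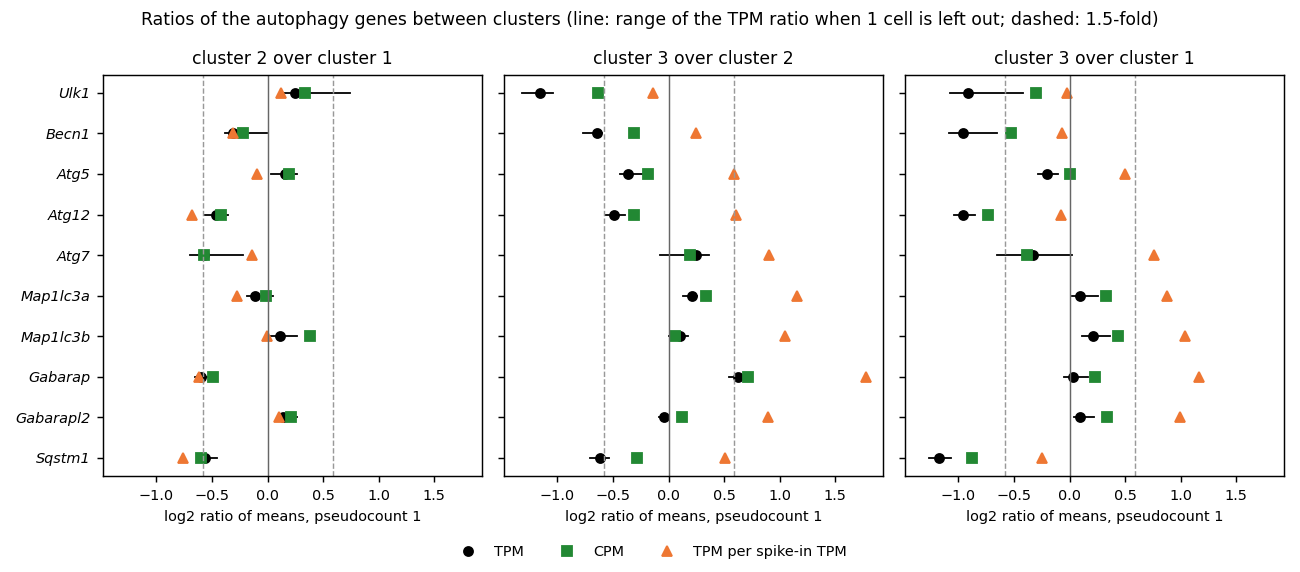
log2 ratio of means between clusters for each gene, from TPM (black, with the range when any 1 library is left out), CPM (green) and TPM per spike-in TPM (orange). Dashed lines mark 1.5-fold. In cluster 3 over cluster 1, Becn1, Atg12, Sqstm1 and Ulk1 lie left of the 4 ATG8 genes on each scale, and the spike-in scale lies to the right of the other scales in both comparisons with cluster 3.

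The scale decides whether these 4 genes were lower, but not that their ratios were below those of the ATG8 genes. Dividing by spike-in TPM moved the median of all tested genes to 0.62 for cluster 3 over 2 and to 0.48 for cluster 3 over 1. On this scale, in cluster 3 against cluster 1, 5 of the 10 were higher and 0 lower, while 46.1% of tested genes were higher and 18.7% lower. In cluster 3 against cluster 2 the counts were 7 higher and 0 lower, beside 51.9% and 9.24% of tested genes, and in cluster 2 against cluster 1 they were 0 higher and 3 lower, beside 20.6% and 28.6%. From cluster 1 to 3, Gabarap (1.16), Map1lc3b (1.04), Gabarapl2 (0.99), Map1lc3a (0.88) and Atg7 (0.76) were the 5, and Ulk1 (-0.02), Becn1 (-0.07), Atg12 (-0.07) and Sqstm1 (-0.25) were the lowest. Relative to the median of all tested genes, the latter 4 were below 0 in this comparison in all 14 settings, and Map1lc3a and Map1lc3b were above 0 in all 14. Whether cells of cluster 3 held more RNA or received less spike-in RNA cannot be told apart here.

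The make-up of the ATG8 RNA within a cell, read per length as TPM, is not touched by spike-in scaling. By CPM, which is not per length, Map1lc3b had a higher mean than Gabarap in clusters 1, 2 and 3 (73.7, 96.2 and 99.9 against 69.6, 49.3 and 81.6 CPM). Over all libraries Gabarapl2 made up a median of 41.3% of the summed TPM of 5 family genes, Map1lc3a 37.4%, Gabarap 13.001% and Map1lc3b 8.001%, while Gabarapl1 had a median of 0% and a mean of 0.476%. Gabarapl2 was the largest in 80 libraries and Map1lc3a in 58. The medians of clusters 1, 2 and 3 were 35.4, 41.8 and 38.3% for Gabarapl2, 35.8, 37.9 and 35.2% for Map1lc3a, 12.1, 11.9 and 14.3% for Gabarap and 7.96, 8.41 and 7.92% for Map1lc3b. These medians differed by less than the SD between cells of a cluster, which was at least 16.2% for Gabarapl2, 12.5% for Map1lc3a, 8.41% for Gabarap and 5.44% for Map1lc3b. The summed ATG8 level had a median of 676, 667 and 724 TPM in the 3 clusters. Gabarapl1 was detected in 20.0% of libraries and had mean shares of 1.49%, 0.316% and 0.342% over clusters 1 to 3.

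**Figure D3:**
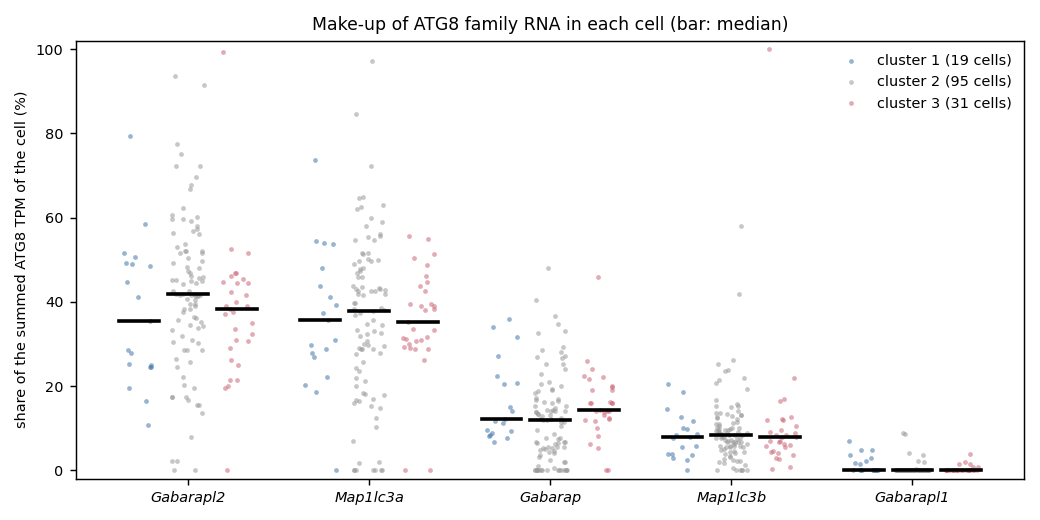
Share of each ATG8 gene in the summed ATG8 TPM of a cell, 1 point per library, by cluster, with bars at the median. Gabarapl2 and Map1lc3a hold most of the sum in the medians of all 3 clusters, and in 1 library of cluster 3 Map1lc3b holds all of it.

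Across all libraries the members moved together little on the TPM scale, and by cluster the values differed. The 45 pairs of genes had a median Spearman's rho of 0.094 across the libraries, from -0.13 (Ulk1 and Gabarap) to 0.30 (Map1lc3a and Gabarapl2). Of the 45, 38 were above 0 (84.4%). All 68990131 pairs of tested genes had a median of 0.040, with quartiles of -0.036 and 0.115, and 63.9% were above 0. Within clusters 1, 2 and 3 the median of the 45 pairs was -0.039, 0.143 and 0.256, with 22, 33 and 39 above 0. These clusters differ in size (19, 95 and 31 libraries), and rho of all pairs of tested genes was not computed within them. Cluster 3 also includes libraries with most members near 0, and their part in rho was not tested. No change along the order is therefore read from the values by cluster. The highest value within a cluster was 0.66, in cluster 3. Across all libraries, the highest pairs after Map1lc3a and Gabarapl2 were Becn1 and Atg12 (0.29), Atg12 and Gabarapl2 (0.28) and Map1lc3a and Sqstm1 (0.28). Atg5 and Atg12, whose products are joined to each other, had a rho of 0.17, and Ulk1 had a rho of at most 0.048 with any other member. Values of a cell share its library and depth, so rho is given as a description. Per spike-in TPM, where all genes of a cell share 1 divisor, the median of the 45 pairs was 0.43 and all 45 were above 0.

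**Figure D4:**
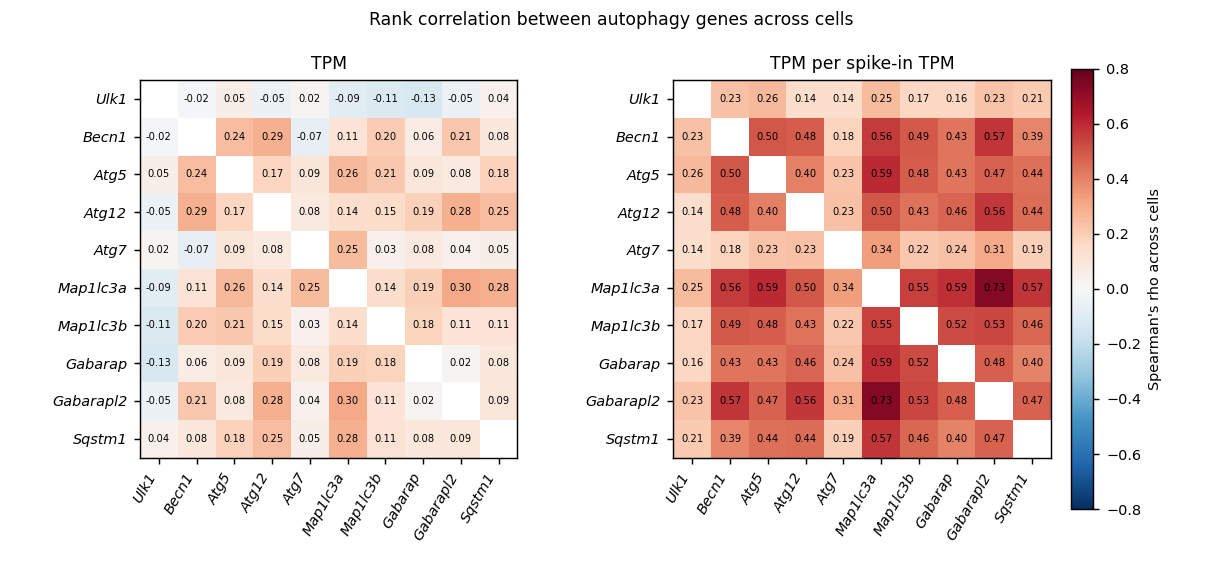
Spearman's rho between each pair of genes across libraries, from TPM (left) and from TPM per spike-in TPM (right). Left, values lie between -0.13 and 0.30, with Ulk1 near or below 0 against every other gene, and right, all lie at or above 0.14.

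Along the first principal component of the cells, Becn1 (rho -0.29), Atg12 (-0.27) and Sqstm1 (-0.23) were the members with the lowest rho, and the other 7 lay between -0.01 and 0.13. All tested genes had a median of 0.005, with quartiles of -0.15 and 0.17. Per spike-in TPM, Becn1, Atg12 and Sqstm1 had a rho of -0.019, -0.033 and -0.025 with this component, and the other 7 lay between 0.08 and 0.29. In 5 bins of 29 libraries each along this order, Becn1 had means of 255, 194, 209, 186 and 118.3 TPM and Sqstm1 of 82.02, 84.2, 55.98, 41.9 and 41.4 TPM. Gabarap had 117.96, 83.8, 71.7, 64.4 and 124.1 TPM, highest at both ends. The SDs in these bins were 83.7 to 211 TPM for Becn1, 30.3 to 89.1 TPM for Sqstm1 and 55.5 to 82.9 TPM for Gabarap, so the bins overlap. The correlation (rho) with the percent of mitochondrial reads was -0.42 for Becn1, -0.37 for Atg12 and -0.29 for Sqstm1, and the part of this percent in their course was not tested. Map1lc3a had a rho of 0.44 with the number of reads and of -0.50 with spike-in TPM.

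By the rule for likeness, which asked for a rho of at least 0.5 across the libraries, the gene most like Becn1 among 8190 coding genes was Atp6v1c1, a subunit of the V-ATPase that acidifies lysosomes (rho 0.52). For 8 members, all but Becn1 and Atg12, the highest rho was between 0.38 and 0.49, so no gene is named for them.

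The rest of the pathway was read from a list of 84 genes in 8 roles, which includes the 10 members. All 84 were among the tested genes. From cluster 1 to 3, 31 of the 84 were lower (36.9%) and 8 higher (9.52%), with a median log2 ratio of -0.40 beside -0.19 for all tested genes. From cluster 2 to 3, 27 were lower (32.1%) and 8 higher (9.52%), and from cluster 1 to 2, 10 were lower (11.9%) and 7 higher (8.33%). By TPM, the share of lower genes was thus near that of all tested genes in both comparisons with cluster 3 and below it from cluster 1 to 2. The share of higher genes was below that of tested genes in all 3 comparisons. By TPM per spike-in TPM the counts turned in both comparisons with cluster 3, as they did for all tested genes. From cluster 1 to 3, 31 were higher and 8 lower, beside 46.1% and 18.7% of tested genes. The median was 0.37, beside 0.48 for all tested genes. From cluster 2 to 3, 41 were higher and 1 lower, beside 51.9% and 9.24%. From cluster 1 to 2, 5 were higher and 27 lower (32.1%), beside 20.6% and 28.6%. The share of lower genes was thus not below that of tested genes there.

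The kinase complex was the role with the lowest median in cluster 3. Of its 5 genes, 4 were lower from cluster 1 to 3, where 36.6% of all tested genes were, with a median log2 ratio of -1.21. One of the 4 is Ulk1, which was inside 1.5-fold by CPM and without S059. Per spike-in TPM 2 were lower and 1 higher, beside 18.7% and 46.1% of tested genes, with a median of -0.45. Atg13, an adaptor of the complex, had means of 51.2, 28.3 and 13.1 TPM over clusters 1 to 3 (log2 ratio -1.89, 3 over 1), and Rb1cc1, the scaffold also called FIP200, had 127.2, 85.05 and 43.5 TPM (-1.53). Divided by spike-in TPM, these ratios were -0.87 and -0.81. Of 8 genes of the VPS34 complexes, 3 were lower, of 10 genes of the ATG9, ATG2 and WIPI group, 4 were lower, and of 11 conjugation genes, 4 were lower, with 0 higher in each. These shares of 37.5%, 40% and 36.4% are at the background of 36.6%. On the spike-in scale 0, 1 and 0 were lower and 2, 2 and 3 higher, beside 18.7% of tested genes lower and 46.1% higher.

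Cargo receptors went both ways. Of 15, 6 were lower (40%, beside 36.6% of tested genes) and 2 higher (13.3%, beside 26.7%) from cluster 1 to 3. On the spike-in scale 2 were lower (13.3%, beside 18.7% of tested genes) and 6 higher (40%, beside 46.1%). Optn, a receptor for ubiquitinated cargo, had means of 15.95, 5.58 and 21.9 TPM (log2 ratio -1.36, 2 over 1, and 1.80, 3 over 2). Bnip3l, a receptor for mitochondria also called NIX, had 427, 609 and 734 TPM (0.78, 3 over 1), and Retreg1, a receptor for endoplasmic reticulum, had 7.42, 7.44 and 14.2 TPM (0.85). These were the 2 higher receptors, and in the clusters made from variable genes their ratios were 0.499 and 0.458, inside 1.5-fold. Ncoa4, the ferritin receptor, had 175, 128.2 and 59.9 TPM (-1.53), and Tollip, an adaptor for ubiquitinated cargo, had 31.9, 21.996 and 8.72 TPM (-1.76). On the spike-in scale these were -0.99 and -0.97 from cluster 1 to 3, and -0.31 and -0.30 from 2 to 3.

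Of 16 genes of fusion and the lysosome, 8 were lower (50.0%, beside 36.6% of tested genes) and 0 higher (beside 26.7%) from cluster 1 to 3. On the spike-in scale 3 were lower (beside 18.7% of tested genes) and 3 higher (beside 46.1%). Atp6v1h, a subunit of the V-ATPase, had 317, 215 and 104.7 TPM (-1.59). The lysosomal proteases differed in course, with Ctsl at 197, 93.7 and 83.7 TPM (-1.06, 2 over 1) and Ctsd at 86.6, 121.6 and 50.7 TPM (-1.25, 3 over 2, and -0.45 per spike-in TPM). Vamp8, a fusion protein, had 17.2, 4.10 and 6.38 TPM (-1.83, 2 over 1, and -0.92 in the variable-gene clusters). Epg5, a tether, had 9.55, 6.51 and 10.6 TPM (0.63, 3 over 2, and 0.55 at the lowest with 1 library left out).

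The 14 upstream regulators were the role with the most higher genes, 6 from cluster 1 to 3 (42.9%, beside 26.7% of tested genes) with 1 lower (7.14%, beside 36.6%). On the spike-in scale 10 were higher and 0 lower, where 46.1% of tested genes were higher and 18.7% lower. In the variable-gene clusters 4 were higher, where 24.2% of tested genes were. Foxo3, a transcription factor that keeps primordial follicles dormant, had 20.3, 91.1 and 66.04 TPM (log2 ratio 2.11, 2 over 1). With clusters from the 2000 most variable genes this ratio was 0.88. Rptor, a subunit of the autophagy-inhibiting kinase complex mTORC1, had 8.34, 24.9 and 17.99 TPM (1.47), while Mtor itself had 44.5, 45.8 and 15.99 TPM (-1.46, 3 over 2, and -0.35 per spike-in TPM). Deptor, an inhibitor of mTOR, had 14.9, 18.6 and 38.7 TPM (1.02, 3 over 2), and Tfe3, a transcription factor of lysosomal genes, had 17.3, 12.2 and 29.4 TPM (1.20). The remaining genes named by the rule were Atg10 (-0.67, 2 over 1, but -0.31 with 1 library left out and -0.20 in the variable-gene clusters), Tsc1 (0.49, 2 over 1) and Wdr45 (1.26, 2 over 1, but -0.39 with clusters from the most variable genes).

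**Figure D5:**
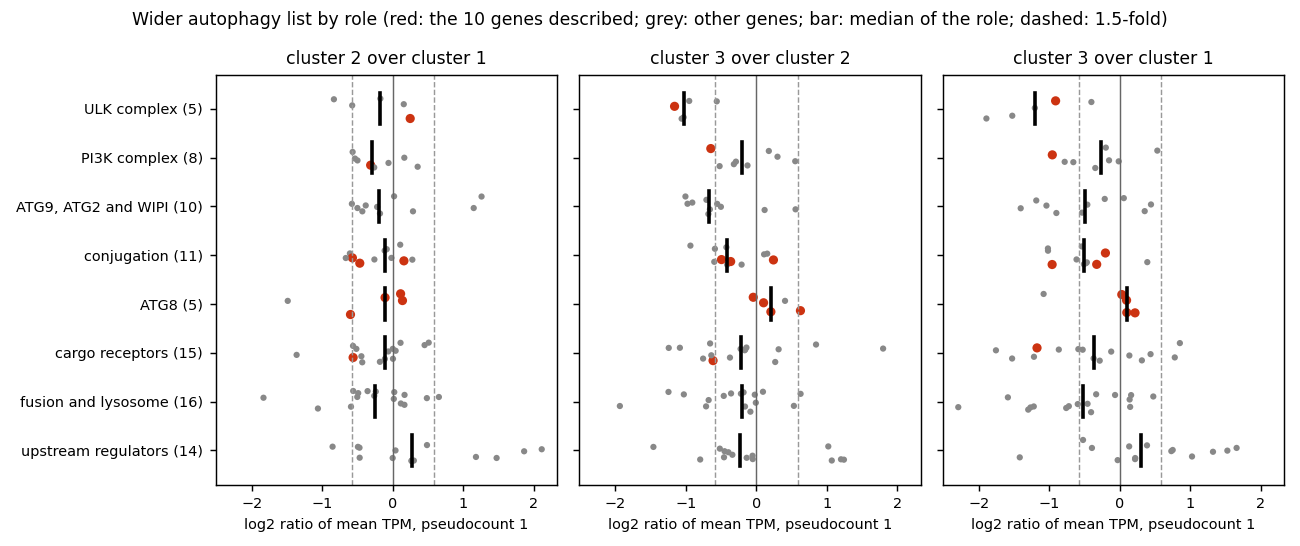
log2 ratio of mean TPM of the 84 listed genes in 8 roles, with the number of genes of each role, for the 3 comparisons. Red points are the 10 genes, bars are medians and dashed lines mark 1.5-fold. The kinase complex has the lowest median in cluster 3 over cluster 1 (-1.21), and the upstream regulators the highest (0.30).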

How the data were processed

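Smart-seq2 libraries of 146 single germ cells were analysed. Reads were quantified by the authors with Salmon (seqBias) on mm10 plus spike-in sequences. Per gene symbol the authors deposited TPM, which sum to 1000000 in a library including spike-ins and mitochondrial genes, and estimated counts of reads, which are not normalized. The annotation release is not given in the sources used here. Cells were picked by diameter and screened by PCR before sequencing.

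The members, the Ddx4 limit of 1 TPM and all gene lists were chosen with earlier results of these data known. Coding genes were found by symbol in GENCODE M21 and RefSeq; 24295 symbols had no match and were not used as tested genes (nuclear coding genes with a mean of 1 TPM or more). Seurat 5.3.0 under R 4.3.3 rebuilt the clusters from TPM of 20 feature genes (10 components, 20 neighbours, resolution 0.2). No doublet caller was run on these picked cells. Since all cells are 1 sample, no p-value or standard error was made. Means, log2 ratios with a pseudocount of 1 TPM, exact intervals and Spearman's rho came from Python 3.11.15 (pandas 2.3.3, NumPy 2.4.6, SciPy 1.17.1), pseudotime from scanpy 1.11.5 and alignments from Biopython 1.88.

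The rule named the 10 members, the 5 highest and 5 lowest ratios of the wider list in each comparison (mean of 10 TPM or more in either of its clusters), and genes whose rho with a member reached 0.5 among coding genes found in 50% of libraries. Gabarapl1, Cntd1 and Mrnip are named for their sequence. The gene most like Atg12 is not reported here.

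Alternatives were CPM, TPM over nuclear genes, TPM per spike-in TPM, means of log2 values, medians, a pseudocount of 0.1, all genes without a filter, Ward clusters, clusters from 2000 variable genes, 3 equal parts of the order, all 146 libraries, the published quality limits read on TPM, other detection rules, other orders of cells, and each library left out. Averaging the 7 pairs of nearly equal libraries (r above 0.9) and leaving out libraries with over 1000 TPM of haemoglobin were added after the data were seen.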

Additional observations from a re-analysis of the deposited data

Results flagged for a closer look

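The library left out for lack of Ddx4, S029, enters no comparison above, and 3 of the 10 genes had more than 3 reads in it, the limit that a count of 0 allows. Ulk1 was at 13.4 TPM from 6.62 estimated reads, Becn1 at 1.07 TPM from 6.93 reads and Map1lc3b at 13.3 TPM from 78.5 reads. The limit of 3 reads corresponds to 6.09, 0.466 and 0.507 TPM for these genes.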

How the results depend on the processing

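The number of members past 1.5-fold from cluster 1 to 2 was 1. It was 0 with TPM over nuclear genes, Ward clusters, all 146 libraries or the quality limits on TPM, 2 with medians or a pseudocount of 0.1, 3 with spike-in scaling, without haemoglobin-rich libraries or with the 7 pairs averaged, 4 with means of log2 values, and 0 to 3 with any 1 library left out. From cluster 2 to 3 it was 4, and 2 with CPM, Ward clusters or 3 equal parts of the order, 7 with spike-in scaling, and 3 with the 7 pairs averaged, means of log2 values, medians or the quality limits, and 5 with variable-gene clusters. From cluster 1 to 3 it was 4, all lower, and 2 with CPM, 3 with means of log2 values, medians, Ward clusters or equal parts of the order, 5 (4 lower and Atg7 higher) with variable-gene clusters, and 5, all higher, with spike-in scaling. Spike-in scaling moved the members' median to 0.75 for 3 over 2 and 0.63 for 3 over 1, that of the 84 genes to 0.56 and 0.37, and the median rho of pairs to 0.43. Under it the 3 over 2 ratios of Becn1 (0.24), Sqstm1 (0.51), Atg5 (0.59), Atg12 (0.61) and Gabarapl2 (0.89) were above 0 where TPM gave values below 0. With means of log2 values those of Sqstm1 (0.056), Gabarapl2 (0.062) and Atg5 (0.14) were too. Of the 10 genes, 6 kept their rank of level with spike-in scaling and 2 with CPM, which is not per length. The causes were not tested. Of 147 recomputed counts and medians, 24 moved by more than 1.5 times the count or more than the spread between cells, as did 73 of 506 recomputed values of single genes and background shares. No label gives the litter of a cell, so the spread between litters is unknown, and Atg7 rests on a median of 2 reads per library.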
